A study of Mus musculus with 12 samples.

Results

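Gene expression was compared between 8 mice of the substitution strains CSS1 and CSS2, as one group, and 4 mice of the strain Bl6, which the labels give as C57BL/6J. These are all 12 mice of the study, and all were sampled at postnatal day 14. The Bl6 mice carry the numbers 2, 5, 8 and 11, the CSS1 mice 3, 6, 9 and 12, and the CSS2 mice 1, 4, 7 and 10. CSS1 and CSS2 were read from their names as chromosome substitution strains, in which a single chromosome of a donor strain (here 1 or 2) replaces its counterpart on the Bl6 background. The donor strain and the sex of the mice are not given in the labels. Each mouse had its own dual-colour array, with its RNA in one dye and a pool of Bl6 RNA in the other. The pool was the same on every array, and the number of mice in it is not given. The labels name the hippocampus, while the design text speaks of brains. All 16 measured markers of glutamatergic neurons and hippocampal subfields were above background on all 12 arrays, which does not tell the whole brain from the hippocampus.

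Values are log2 ratios of a mouse's RNA over the pool with the fitted dye effect removed, so that 0 is the level of the pool. A difference is the mean of the CSS1 and CSS2 strain means minus the Bl6 mean, given with its standard error (SE). A gene was called when limma gave an adjusted p under 0.05 after Benjamini-Hochberg adjustment over all 39239 kept probes. The brightest probe stands for a gene. The p-values measure the spread between these individual mice.

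Oligodendrocytes wrap axons in myelin, a compacted membrane rich in galactolipids and in a small set of structural proteins, and in the mouse forebrain much of this wrapping takes place in the weeks after birth. Over the same weeks, late-born neurons stop making the cytoskeletal and adhesion proteins of growing neurites, astrocytes build up their mature set of transporters, gap junction proteins and enzymes, and fast-spiking interneurons acquire their channels. A substituted chromosome can change genes that lie on it through their own sequence. Genes on the other chromosomes have the same Bl6 sequence in all 3 strains of an ideal panel.

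Promoters are shown for the 2 largest rises among genes off chromosomes 1 and 2 that rose in both strains by the rule below. They are the 250 bases before the RefSeq start of transcription on GRCm38.p6, read along the gene's own strand, Opalin at chr19:41077114-41077363 on the minus strand and Cldn11 at chr3:31149670-31149919 on the plus strand. Capitals mark ACAAAG, one of 2 six-letter cores of the kind bound by SOX transcription factors that were searched on both strands. The other, ACAATG, is in neither promoter.
Opalin: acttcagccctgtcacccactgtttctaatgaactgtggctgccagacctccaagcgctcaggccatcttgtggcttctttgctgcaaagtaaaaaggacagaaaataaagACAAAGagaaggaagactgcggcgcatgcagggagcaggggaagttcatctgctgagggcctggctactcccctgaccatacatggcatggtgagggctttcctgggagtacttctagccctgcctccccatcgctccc
Cldn11: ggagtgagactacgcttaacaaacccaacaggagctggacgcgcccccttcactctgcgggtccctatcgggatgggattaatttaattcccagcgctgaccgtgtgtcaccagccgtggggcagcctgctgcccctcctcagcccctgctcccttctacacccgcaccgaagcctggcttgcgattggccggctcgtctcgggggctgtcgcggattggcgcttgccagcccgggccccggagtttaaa
ACAAAG was present in 16.5% of 32851 promoters of this length and in 6 of 14 promoters of 11 genes of the myelin list (42.9%). Among the genes that rose or fell in both strains it was in 14.9% of 175 promoters of risen genes and in 8.7% of 46 promoters of fallen genes. ACAATG was in 10.7% of all promoters, in 8.57% of those of risen genes, in 4.35% of those of fallen genes and in 7.14% of those of the myelin list. A match is a description of the letters and not of binding.

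In the 2 strains combined, 10 of 14 measured myelin genes and 8 of 19 astrocyte genes were called higher, and 5 of 23 genes of immature neurons were called lower. Of 21643 genes, 377 were called (1.74%), 244 higher (1.13%) and 133 lower (0.615%). Chromosome 1 held 60 called genes among 1178 tested (5.09%), chromosome 2 held 55 among 1935 (2.84%), and on the other autosomes and the X chromosome the share ran from 1.01% to 2.09%. Off chromosomes 1 and 2, 261 of 18494 genes were called (1.41%), 179 higher (0.968%) and 82 lower (0.443%). Of these, 242 moved the same way in both strains with an unadjusted p under 0.05 in each, and are called shared genes below. They made up 1.31% of the genes tested there, 173 that rose (0.935%) and 69 that fell (0.373%), so that 71.5% of shared genes had risen. With each array centred on its median in place of the loess normalization, 81 genes were shared and 90.1% of them had risen. Each strain was compared with the same 4 Bl6 mice, so a chance shift in those mice enters both strain differences. Without Bl6 mouse 2 the shared genes numbered 67, and 66 of the 242 were among them. They numbered 117 without Bl6 mouse 5, 122 without Bl6 mouse 11 and 148 without CSS1 mouse 3. Alone against Bl6, CSS1 had 439 called genes (2.03%), with 1.17% of all genes higher and 0.859% lower, and CSS2 had 225 (1.04%), with 0.661% higher and 0.379% lower. In the stricter count of genes off chromosomes 1 and 2, with an adjusted p under 0.05 in each strain, 60 genes rose (0.324%) and 12 fell (0.0649%).

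**Figure D1:**
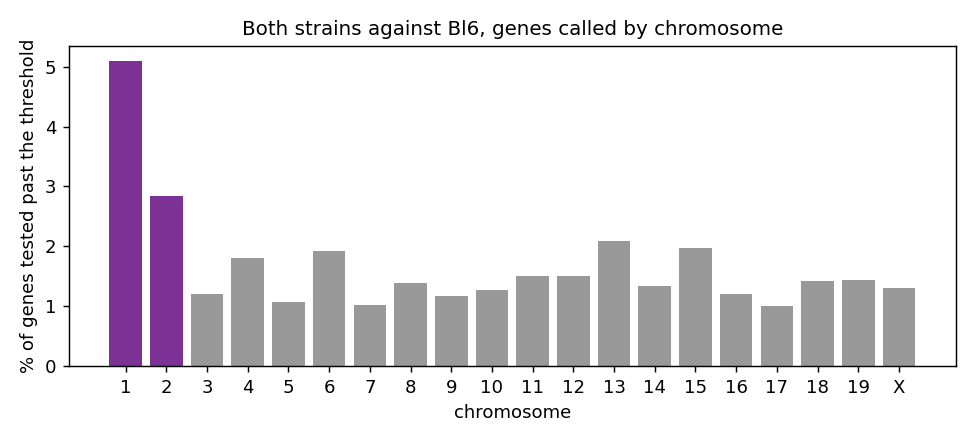
Percentage of tested genes on each chromosome that were called in CSS1 and CSS2 together against Bl6 (vertical axis), by chromosome (horizontal axis). Chromosome 1 stands at 5.09% and chromosome 2 at 2.84%, and every other chromosome is at or below 2.09%.

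The shared rises were of modest size. The median of the 173 was 0.30, the smallest 0.12 and the largest 0.95, and 23 exceeded 0.5. The 69 falls had a median of -0.25, and their sizes ran from 0.13 to 0.84, with 4 beyond 0.5. The median difference over all genes tested was 0.00. In 209 of the 242 shared genes all 8 substitution strain mice lay on one side of all 4 Bl6 mice, 152 of the rises and 57 of the falls. Over all genes the shares were 1.71% above, 0.864% below and 2.57% in all, and the choice of shared genes by the same mice fixes most of that contrast.

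**Figure D2:**
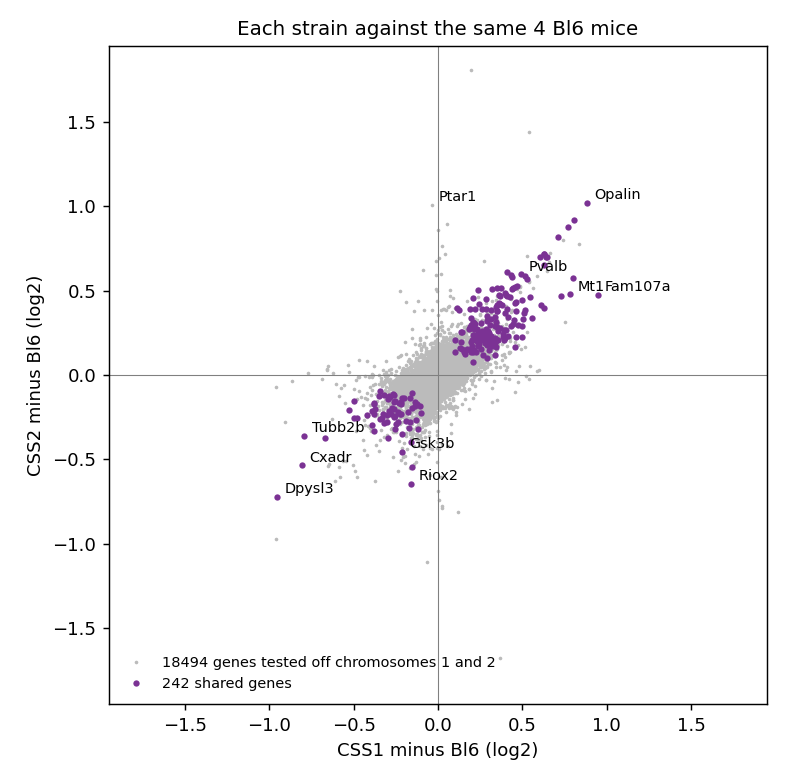
CSS1 minus Bl6 (horizontal axis, log2) against CSS2 minus Bl6 (vertical axis, log2) for genes off chromosomes 1 and 2, with the 242 shared genes in purple and all tested genes in grey. The axes share the 4 Bl6 mice, which by itself tilts the cloud upward. Opalin stands at the upper right, Dpysl3 at the lower left, and Ptar1, far from 0 in CSS2 alone, is not a shared gene.

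Opalin, a membrane protein of myelinating oligodendrocytes, rose most among the shared genes. Its log2 values were -0.28, 0.20, 0.29 and -0.19 in Bl6 mice 2, 5, 8 and 11, 1.00, 0.90, 1.00 and 0.64 in CSS1 mice 3, 6, 9 and 12, and 0.96, 1.12, 0.86 and 1.16 in CSS2 mice 1, 4, 7 and 10. The lowest substitution strain mouse was above the highest Bl6 mouse. The difference was 0.95 ± 0.11 (SE), or 1.93-fold, with a limma adjusted p of 0.00283. In a bulk tissue, more oligodendrocytes and more RNA per oligodendrocyte cannot be told apart.

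Cldn11 encodes claudin 11, the tight junction protein that seals the layers of central myelin. It measured -0.26, 0.02, -0.01 and 0.09 in the Bl6 mice in order of their numbers, 0.85, 0.59, 1.01 and 0.62 in CSS1, and 0.88, 0.84, 0.74 and 1.06 in CSS2. The groups did not overlap. The difference of 0.86 ± 0.09 had an adjusted p of 0.00127. Mobp, a basic protein of the compact sheath, rose by 0.69 ± 0.10 (adjusted p = 0.00922), and its other 2 probes gave 0.57 and 0.61. Tspan2, a tetraspanin of oligodendrocytes, rose by 0.64 ± 0.09 (adjusted p = 0.00749). Mag, the adhesion protein on the inner face of the sheath, rose by 0.55 ± 0.07 (adjusted p = 0.00528). Mog, on the outermost face, rose by 0.40 ± 0.07 (adjusted p = 0.025), and its call was lost without any 1 of Bl6 mice 2, 5 or 11, CSS1 mouse 3 or CSS2 mice 4 or 10, with an adjusted p of at most 0.102. Mag and Mog were chosen after their values were seen. Mal, a proteolipid of myelin whose gene lies on chromosome 2 and so is not a shared gene by the rule, showed the widest rise of all genes. Its values were -0.37, 0.13, 0.30 and 0.00 in Bl6, 1.38, 1.27, 1.59 and 1.01 in CSS1, and 1.12, 1.18, 1.10 and 1.54 in CSS2. All 8 substitution strain mice, including the 4 CSS1 mice with no substituted chromosome 2, were far above the Bl6 mice, and the difference was 1.26 ± 0.14 (adjusted p = 0.00138).

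Fa2h makes the hydroxylated fatty acids of myelin sphingolipids, Ugt8a adds galactose to ceramide, and Gal3st1 turns the product into sulfatide. Fa2h measured -0.18, -0.05, -0.06 and 0.05 in Bl6, 0.52, 0.60, 0.94 and 0.55 in CSS1 and 0.82, 0.65, 0.66 and 0.90 in CSS2, without overlap. Its difference was 0.77 ± 0.08 (adjusted p = 0.00125). Ugt8a rose by 0.65 ± 0.10 (adjusted p = 0.0083) and Gal3st1 by 0.44 ± 0.05 (adjusted p = 0.00294), both without overlap between the groups. Trf encodes transferrin, the iron carrier that oligodendrocytes make in the brain. It rose by 0.83 ± 0.12 (adjusted p = 0.00754), and its other probe gave 0.86. Slc44a1, a choline transporter, was chosen after its values were seen. It rose by 0.55 ± 0.05 (adjusted p = 0.000715), but its other 3 probes gave -0.07, 0.04 and 0.27. Apod, a secreted lipid carrier of the lipocalin family, rose by 0.47 ± 0.05 (adjusted p = 0.00156) on its brightest probe and gave 0.17 on the other, which was not called.

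Genes outside the myelin list given below also stood among the 12 largest rises. Pdlim2, a PDZ and LIM domain protein that binds actin filaments, had the lowest adjusted p of these 12. It measured -0.16, -0.04, 0.05 and -0.14 in Bl6, 0.53, 0.72, 0.52 and 0.44 in CSS1 and 0.75, 0.64, 0.56 and 0.64 in CSS2. No mouse of either strain came near the Bl6 range, and the difference was 0.67 ± 0.06 (adjusted p = 0.000362). Ppp1r14a, an inhibitor of myosin phosphatase, and Plekhh1, a protein with pleckstrin homology domains, both rose by 0.67 (SE 0.09 and 0.08, adjusted p = 0.0061 and 0.00275). Olfr1432, named for an olfactory receptor, rose by 0.67 ± 0.07 (adjusted p = 0.00127) on one probe and stood at 0.00 on the other, so the probes disagree.

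The myelin list held 16 genes, of which 14 were measured. Of these 10 were called higher and none lower, against 1.13% and 0.615% of all genes, and the median difference was 0.67. In each strain alone, 9 were called higher in CSS1 and 8 in CSS2. The 4 of the list not called in the combined comparison were Mbp at 0.69 (adjusted p = 0.0588), Cnp at 0.62 (adjusted p = 0.0502), Aspa at 0.14 and Ermn at -0.01. Mbp encodes the basic protein that zips the sheath together, and its other 2 probes gave 0.01 and 0.08. The median of the list was -0.28, 0.05, 0.20 and -0.03 in Bl6 mice 2, 5, 8 and 11, and 0.51 to 0.77 in the 8 mice of the substitution strains. Bl6 mouse 2 was the lowest of its group and mouse 8 the highest, and both were below every CSS1 and CSS2 mouse. Without mouse 2 the count called was 9, and over all alternatives it was 7 to 13. Where single mice were left out, Opalin, Cldn11, Trf, Fa2h, Mobp, Ugt8a, Tspan2, Mag and Mal stayed past the threshold each time.

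The second list of myelin and oligodendrocyte genes had 8 of 20 measured genes called higher and none lower in the strains combined, with a median of 0.21. Without Bl6 mouse 2, only 2 were called in that comparison. In CSS1 alone 4 were called higher and 1 lower, with a median of 0.15. In CSS2 alone 8 were called higher and none lower, with a median of 0.24, and 2 were called between CSS1 and CSS2. Gsn, an actin-severing protein, rose by 0.74 ± 0.13 (adjusted p = 0.0155), and its gene is on chromosome 2. Plekhb1, with a pleckstrin homology domain, rose by 0.44 ± 0.07 (adjusted p = 0.0106). Enpp6, a choline phosphodiesterase of oligodendrocytes that have just begun to myelinate, rose by 0.37 ± 0.06 (adjusted p = 0.0105). Nkx6-2, a homeodomain factor of maturing oligodendrocytes, rose by 0.42 ± 0.08 (adjusted p = 0.022), with 0.57 on its other probe, and Sox8, an HMG-box factor of the lineage, by 0.33 ± 0.05 (adjusted p = 0.0134), though it is outside the list. The last 3 were chosen after their values were seen. The calls of Gsn, Plekhb1, Enpp6, Nkx6-2 and Sox8 were lost without Bl6 mouse 2, with adjusted p of 0.0506, 0.0607, 0.0519, 0.115 and 0.0761. That of Gsn was also lost without Bl6 mouse 5 (0.054), that of Sox8 without Bl6 mouse 11 (0.0563), and that of Nkx6-2 without Bl6 mice 5 or 8 or CSS1 mouse 3, at 0.0802, 0.0646 and 0.0542.

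Among the 9 oligodendrocyte precursor genes, which overlap the second list, 1 was called higher and none lower, and the median was 0.10. The called gene was Olig1, a basic helix-loop-helix factor of the lineage, at 0.26 ± 0.04 (adjusted p = 0.00972, and 0.0568 without Bl6 mouse 2). It rose more in CSS2 (0.38) than in CSS1 (0.13), and that gap was itself called, at -0.26 for CSS1 minus CSS2 (adjusted p = 0.0208). Pdgfra, the growth factor receptor that defines precursors, stood at -0.08 and was not called.

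**Figure D3:**
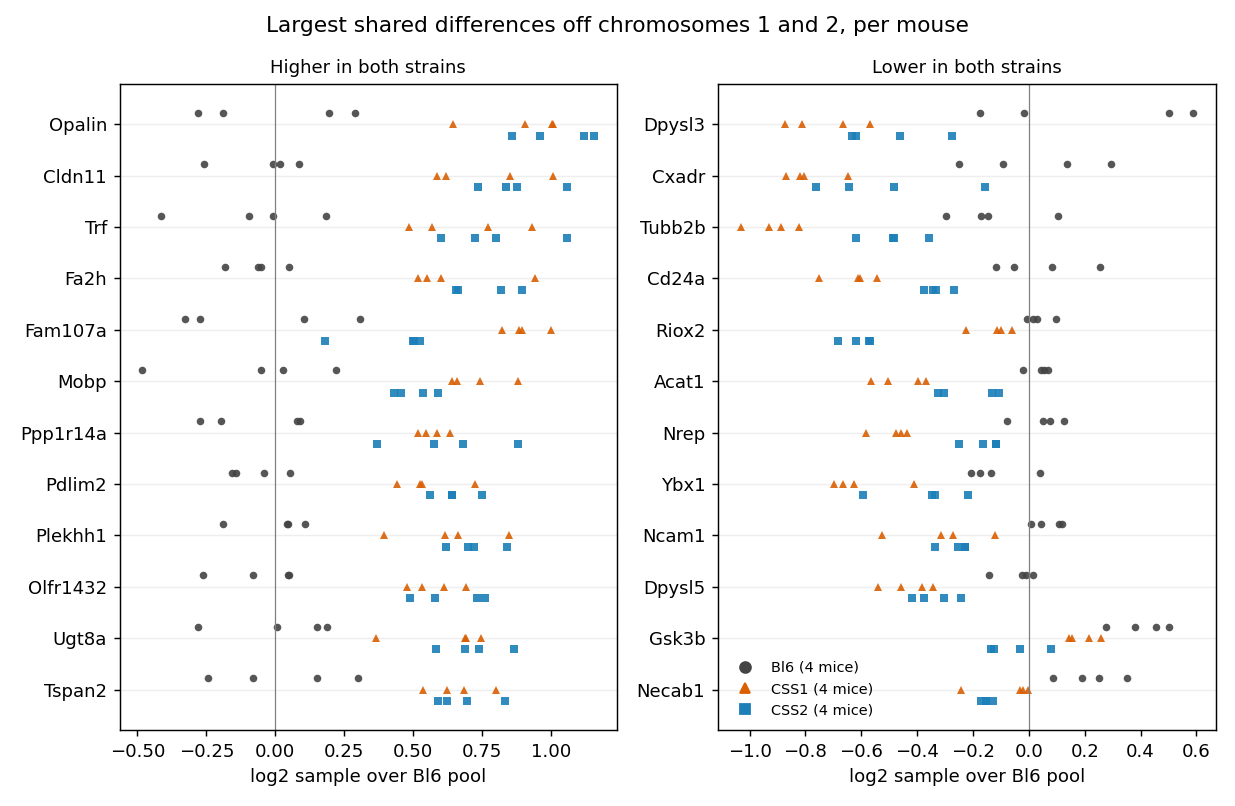
Log2 ratio of each mouse over the Bl6 pool (horizontal axis) for the 12 largest shared rises and the 12 largest shared falls (vertical axis), with each of the 12 mice as a point marked by strain. For Opalin the 4 Bl6 mice lie between -0.28 and 0.29 and the 8 other mice between 0.64 and 1.16.

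Of 19 measured astrocyte genes, 8 were called higher and none lower in the strains combined, and the median was 0.21. In each strain alone, 7 were called higher in CSS1 and 1, S100b, in CSS2, with medians of 0.26 and 0.18, and none was called between CSS1 and CSS2. The list median was -0.12 to 0.06 in the Bl6 mice and 0.11 to 0.36 in the other 8. Gjb6 encodes connexin 30, a gap junction protein of astrocytes. Its values were -0.26, 0.09, 0.06 and -0.09 in Bl6, 0.59, 0.52, 0.79 and 0.42 in CSS1 and 0.35, 0.35, 0.23 and 0.46 in CSS2. The groups did not overlap, and the difference was 0.51 ± 0.08 (adjusted p = 0.00978). S100b, a calcium-binding protein of astrocytes that some oligodendrocytes also make and, like Aldoc below, chosen after its value was seen, rose by 0.47 ± 0.07 (adjusted p = 0.00722).

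The largest astrocyte difference was that of Fam107a, an actin-associated protein. It measured -0.33, 0.10, 0.31 and -0.27 in Bl6, 1.00, 0.88, 0.89 and 0.82 in CSS1 and 0.50, 0.53, 0.18 and 0.50 in CSS2. CSS2 mouse 7 fell within the Bl6 range. The difference was 0.71 ± 0.11 (adjusted p = 0.0113, and 0.0545 without Bl6 mouse 2), and the other probe gave 0.12 and was not called. CSS1 exceeded CSS2 by 0.47, with a 95% interval of 0.18 to 0.76 and an adjusted p of 0.202. The metallothioneins Mt1 and Mt2, which bind zinc and copper, rose by 0.63 ± 0.10 and 0.60 ± 0.11 (adjusted p = 0.0134 and 0.0248). They are closely related small genes, and whether their probes cross-react was not tested, and the second probe of Mt1 gave -0.02. For both, Bl6 mouse 8 lay above the lowest CSS2 mouse. Both calls were lost without Bl6 mouse 2, at 0.0757 and 0.129, and that of Mt2 also without Bl6 mice 5 or 11, CSS1 mouse 3 or CSS2 mice 4 or 10. Aldoc, a glycolytic enzyme of astrocytes, rose by 0.40 ± 0.08 (adjusted p = 0.0346), a call lost in 9 of the 12 fits that left out a mouse, at 0.162 without Bl6 mouse 2. Aqp4, the water channel of astrocyte endfeet, was at -0.09 and Gfap, the filament protein, at 0.10, and neither was called. Without Bl6 mouse 2, or without the dye term, 2 astrocyte genes were called. There were 4 without Bl6 mouse 5 or 11, and 5 without CSS1 mouse 3 or CSS2 mouse 4 or 10.

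Among neuronal genes, calls were counted only in the lists. Of 15 interneuron genes 4 were called higher and none lower, with a median of 0.08. A difference above 0 was seen in 11 of the 15, against 10875 of all 21643 genes, and the lowest was -0.12. At an unadjusted p under 0.05 in limma, 6 were higher and 1 was lower, where 12.6% of all genes stood. Pvalb, the calcium buffer of fast-spiking interneurons, measured -0.16, -0.12, 0.09 and 0.06 in Bl6, 0.51, 0.54, 0.38 and 0.40 in CSS1 and 0.81, 0.46, 0.35 and 0.64 in CSS2. The groups did not overlap, the difference was 0.55 ± 0.08 (adjusted p = 0.00889), and the other probe gave 0.78. Kcnc1 and Kcnc2 encode the potassium channels Kv3.1 and Kv3.2, which let such cells fire fast. They rose by 0.50 ± 0.09 and 0.26 ± 0.05 (adjusted p = 0.0242 and 0.0282), and the other 2 probes of Kcnc1 gave 0.12 and 0.11. Vip, the peptide of another interneuron class, rose by 0.31 ± 0.06 (adjusted p = 0.0295). Sst, Npy and Gad1, also markers of inhibitory neurons, stood at 0.06, 0.12 and 0.19 without a call. None of the 4 was called without Bl6 mouse 2, where Pvalb had an adjusted p of 0.0506 and Kcnc1, Kcnc2 and Vip had 0.129, 0.144 and 0.153. Kcnc1, Vip and Kcnc2 also lost their calls without other single mice, in 4, 8 and 7 of the 12 such fits. The list had 1 call without Bl6 mouse 5 or CSS1 mouse 3, and 2 without Bl6 mouse 11, CSS1 mouse 9 or CSS2 mouse 4 or 10.

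Of the potassium and HCN channel genes, 3 of 21 were called higher (median 0.04), Kcnc1, Kcnc2 and Kcna1, a Kv1 subunit of axons, at 0.37 ± 0.08 (adjusted p = 0.0483). Of 15 sodium and calcium channel genes (median -0.04, 5 above 0) 1 was called, Scn4b, an auxiliary sodium channel subunit, at 0.27 ± 0.05 (adjusted p = 0.0249). That list ran from -0.31 to 0.32. Of 13 GABA-A receptor and chloride genes (median 0.03, 8 above 0) 1 was called, Gabrd, the delta subunit of extrasynaptic receptors, at 0.21 ± 0.04 (adjusted p = 0.048). Its list ran from -0.17 to 0.23. At an unadjusted p under 0.05 in limma, 6 potassium and HCN channel genes were higher and 1 lower. In the sodium and calcium list 2 were higher and 2 lower, and in the GABA-A list 3 were higher and 2 lower. The calls of Kcna1, Scn4b and Gabrd were lost in 9, 5 and 9 of the 12 fits that left out a mouse, at up to 0.193, 0.112 and 0.194, each without Bl6 mouse 2. Kcnab3, an auxiliary subunit of Kv1 channels chosen after its values were seen, rose by 0.39 ± 0.05 (adjusted p = 0.00612) and stayed past the threshold whichever mouse was left out. Ndn, the imprinted gene that encodes necdin and was chosen in the same way, rose by 0.52 ± 0.07 (adjusted p = 0.00709), with all 8 mice above the Bl6 range of -0.17 to 0.08.

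Falls were led by genes of growing neurites. Dpysl3, also known as CRMP4, a cytosolic protein of axon growth, measured 0.59, -0.02, -0.17 and 0.50 in Bl6, -0.81, -0.66, -0.87 and -0.57 in CSS1, and -0.46, -0.63, -0.27 and -0.62 in CSS2. Bl6 mice 2 and 11 stood well above mice 5 and 8, and all 4 were above every other mouse. The difference was -0.84 ± 0.14 (adjusted p = 0.0136), with 0.0586 without Bl6 mouse 2 and 0.053 without Bl6 mouse 11. Its other 2 probes gave -0.52 and 0.03. Dpysl5, a relative of Dpysl3, fell by 0.34 ± 0.05 (adjusted p = 0.00612), and its other probe gave -0.08.

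Cd24a, a surface glycoprotein of young neurons, measured 0.26, -0.05, -0.12 and 0.08 in Bl6, -0.61, -0.61, -0.75 and -0.54 in CSS1 and -0.34, -0.37, -0.27 and -0.33 in CSS2. The 3 strains formed separate ranges. The difference was -0.52 ± 0.06 (adjusted p = 0.00321), and it stayed past the threshold whichever mouse was left out. Tubb2b, a beta-tubulin of the developing brain, fell by 0.58 ± 0.07 (adjusted p = 0.00344), with -0.79 in CSS1 and -0.36 in CSS2. That gap of -0.43 was itself called (adjusted p = 0.0356). The other 2 probes of Tubb2b gave -0.24, which was not called, and -0.55. Nrep, a neuronal protein linked to regeneration, fell by 0.37 ± 0.05 (adjusted p = 0.00308), also more in CSS1 (-0.53) than in CSS2 (-0.20), with an adjusted p of 0.0111 for the gap. Ncam1, the neural cell adhesion molecule, fell by 0.35 ± 0.06 (adjusted p = 0.0169), but its other 2 probes gave -0.01 and 0.06. Its call was lost without Bl6 mice 2, 8 or 11, at 0.0668, 0.0508 and 0.066.

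Of the immature neuron and progenitor list, 5 of 23 measured genes were called lower and none higher, with a median of -0.18, against 0.615% of all genes called lower. The 5 were Dpysl3, Tubb2b, Cd24a, Ncam1 and Dpysl5. Members that were not called included Fabp7, a lipid carrier of radial glia, at -0.59, Dcx, the microtubule protein of migrating neurons, at -0.36, and Gap43, of growth cones, at -0.34. Neurod1, a factor of granule cell differentiation on chromosome 2, was at 0.33. The median of the list differed between the strains, at -0.29 in CSS1 and -0.09 in CSS2, a gap that was not tested over the list. In each strain alone, 6 were called lower in CSS1 and 2, Cd24a and Dpysl5, in CSS2. Without Bl6 mice 2 or 11, 3 of the 23 were called lower in the combined comparison.

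All 21 measured cell division genes had a difference below 0, with a median of -0.13, where 10875 of all 21643 genes had one above 0. One-sided signs were not particular to this list. A difference above 0 was seen in 1 of 21 ribosomal protein genes and in 25 of 28 oxidative phosphorylation genes, with no call in either list. In the combined comparison 3 cell division genes were called lower, against 0.615% of all genes, and none higher. In each strain alone, 9 were called lower in CSS1 and 1, Bub1b, in CSS2, and 3 were called between CSS1 and CSS2, Ccna2, Mcm2 and Mcm3. Bub1b, a spindle checkpoint kinase on chromosome 2, fell by 0.38 ± 0.04 (adjusted p = 0.0015), Mcm6, a helicase subunit on chromosome 1, by 0.24 ± 0.03 (adjusted p = 0.00527), and Ccna2, cyclin A2, by 0.22 ± 0.04 (adjusted p = 0.0156). Of these only Ccna2 lies off the substituted chromosomes, its call was lost without Bl6 mice 2 or 11 (0.0883 and 0.0659), and it fell more in CSS1 (-0.34) than in CSS2 (-0.09), with an adjusted p of 0.0192 for the gap. The median was -0.21 in CSS1 and -0.05 in CSS2.

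The other large falls were of mixed function. Cxadr, a cell adhesion protein of the developing brain, fell by 0.67 ± 0.12 (adjusted p = 0.0188), and its other probe gave -0.05. CSS2 mouse 7 at -0.16 lay above Bl6 mouse 8 at -0.25, and the call was lost without Bl6 mice 2, 5 or 11, at 0.102, 0.0537 and 0.0654. Acat1, a mitochondrial thiolase of ketone body metabolism, fell by 0.37 ± 0.05 (adjusted p = 0.00612), with -0.49 in CSS1 and -0.25 in CSS2. Ybx1, a nucleic acid-binding protein, fell by 0.37 ± 0.08 (adjusted p = 0.0414), with -0.48 in CSS1 and -0.25 in CSS2. The call of Ybx1 was lost in 9 of 12 fits that left out a mouse, and its other 4 probes gave -0.28 to -0.40. Riox2, an oxygenase that hydroxylates a ribosomal protein, fell mostly in CSS2. It measured 0.03, 0.01, -0.01 and 0.10 in Bl6, -0.11, -0.10, -0.06 and -0.22 in CSS1 and -0.68, -0.62, -0.57 and -0.57 in CSS2. The difference of -0.40 ± 0.04 (adjusted p = 0.000605) thus joins a CSS1 difference of -0.16 and a CSS2 difference of -0.64, whose gap had an adjusted p of 0.000129, and the other probe gave -0.05.

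**Figure D4:**
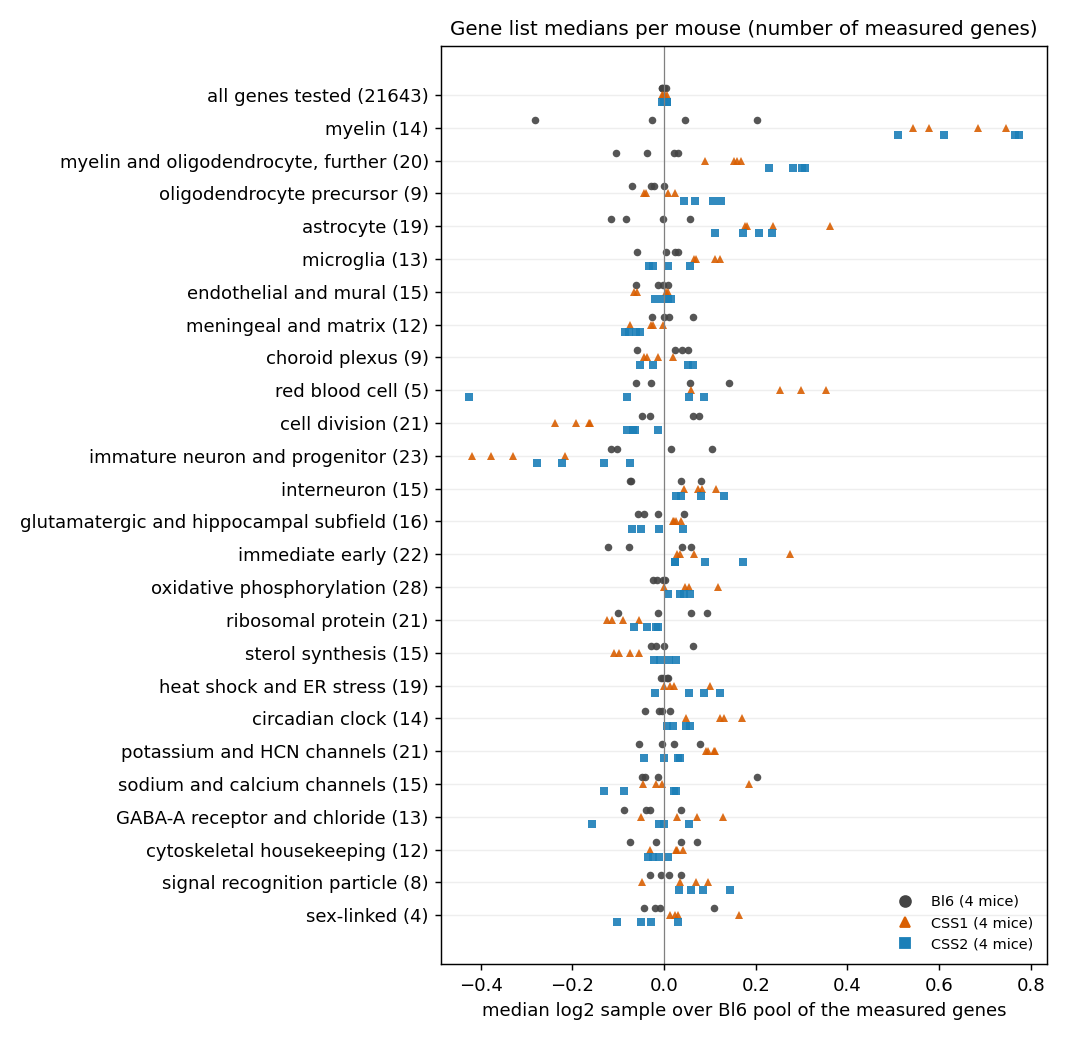
Median log2 ratio over the Bl6 pool of the measured genes of each list (horizontal axis) for each of the 12 mice, marked by strain, with the lists on the vertical axis. In the myelin list the Bl6 mice span -0.28 to 0.20 and the other mice 0.51 to 0.77.

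Among the 12 largest shared rises, the 95% interval of CSS1 minus CSS2 held 0 for 11. The exception was Fam107a, with the interval of 0.18 to 0.76 given above, and for Mobp the gap was 0.23 with an interval of -0.04 to 0.49. For Opalin, CSS1 minus CSS2 was -0.13 with a 95% interval of -0.43 to 0.16. For Cldn11 the interval was -0.34 to 0.12, for Fa2h -0.31 to 0.10 and for Pdlim2 -0.24 to 0.06. The intervals of these 4 hold 0 and also gaps of up to 0.43 in size, so they do not show that the strains act alike. Among the 12 largest shared falls, the interval excluded 0 for Tubb2b, Cd24a, Riox2, Acat1, Nrep, Ybx1 and Gsk3b. For Acat1 it was -0.37 to -0.11 and for Cd24a -0.46 to -0.13. Of these falls only Tubb2b, Riox2 and Nrep had a gap with a limma adjusted p under 0.05. Over all genes 210 were called between the strains (0.97%). Of the 173 shared rises 2 were among them, Olig1 and Ooep, and of the 69 shared falls 6, Ccna2, Cntn6, Gm8545, Nrep, Riox2 and Tubb2b. Another 19 genes off chromosomes 1 and 2 were called in the combined comparison and not shared. The widest was Ptar1, a prenyltransferase subunit family member, with 1.01 in CSS2 and -0.04 in CSS1.

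Markers of cells that a dissection could add had 1 call in limma. At an unadjusted p under 0.05 stood 12.6% of all genes. No gene was called among 13 of microglia (median 0.04, 1 at an unadjusted p under 0.05), 12 of meninges and matrix (median -0.10, 5 such), 9 of choroid plexus (median -0.03, 2 such) and 5 of red blood cells (median 0.08, none such). The 5 of 12 meningeal and matrix genes, 4 of them lower, were above the share of all genes, and 5 members of that list, Col1a1, Col1a2, Col3a1, Lum and Ogn, were called lower against the pool. Of 15 endothelial and mural genes 1 was called, Rgs5, a pericyte gene on chromosome 1, at -0.71 ± 0.05 (adjusted p = 0.000118), with -1.24 in CSS1 and -0.19 in CSS2. The median of these 15 was -0.01, and their differences ran from -0.71 to 0.30. At an unadjusted p under 0.05, 3 were higher and 2 lower, so this list too was above the share of all genes. The median of the red blood cell genes was -0.06 to 0.14 in Bl6, 0.06 to 0.35 in CSS1 and -0.43 to 0.09 in CSS2. All these markers were above background on all 12 arrays. The part of other cells in the rises and falls was not tested beyond these values.

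Other groups showed few or no calls. None was called of 16 glutamatergic and hippocampal subfield genes (median 0.02, 3 at an unadjusted p under 0.05), 28 of oxidative phosphorylation (median 0.06, 3 such), 21 of ribosomal proteins (median -0.07, 3 such), 19 of heat shock and ER stress (median 0.04, 2 such), 12 cytoskeletal genes (median -0.08, 3 such) and 8 of the signal recognition particle (median 0.04, 2 such). None was called of 22 immediate early genes, with a median of 0.14 and 8 at an unadjusted p under 0.05, where 12.6% of all genes stood. Egr1, a factor induced by neuronal activity, had the lowest p of them and stood at 0.40 ± 0.12 (adjusted p = 0.149). Of 15 sterol synthesis genes 1 was called, Tm7sf2, a sterol reductase, which fell by 0.30 ± 0.05 (adjusted p = 0.0134). Its call was lost without Bl6 mice 2 or 5 (0.0642 and 0.0508). Of 14 clock genes 1 was called, Npas2, a partner of the clock proteins on chromosome 1, at -0.38 ± 0.04 (adjusted p = 0.000711), with -0.81 in CSS1 and 0.04 in CSS2. Srp9, the signal recognition particle subunit named in the study's title, differed by 0.05 ± 0.04 (limma adjusted p = 0.801). Its other probe gave -0.18 (adjusted p = 0.0636), so the probes differ in sign. Srp9 lies on chromosome 1, which is substituted in CSS1 alone. A difference confined to CSS1 would enter this mean of both strains at a reduced size.

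The 4 Bl6 mice were then set against the pool of their own strain, where a value of 0 means that a mouse equals the pool. In limma 20 genes were called (0.0924%), all of them higher in the mice, and none was lower. At an unadjusted p under 0.05 there were 895 genes (4.14%), 527 higher and 368 lower. Without Bl6 mouse 2, without Bl6 mouse 5, or with median centring, none was called, and 829, 537 and 372 genes had an unadjusted p under 0.05. Without Bl6 mice 8 or 11 there were 5 and 1 calls, and without CSS2 mouse 10 there were 8. By contrast 2410 genes (11.1%) were called in the 8 substitution strain mice against the pool, a comparison that uses 8 arrays and not 4. That count was 1481 without CSS1 mouse 3 and 1582 without CSS2 mouse 10.

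Actb, the gene of beta-actin that is often used as a constant reference, stood furthest from the pool in the Bl6 mice. Its values were 0.62, 0.53, 0.61 and 0.65 in Bl6, 0.35, 0.10, 0.28 and 0.72 in CSS1 and 0.09, 0.11, 0.06 and -0.11 in CSS2. The Bl6 mice were together at 0.60 ± 0.08 above their pool (adjusted p = 0.0202), while the CSS2 mice were near it. Against Bl6 the substitution strains differed by -0.40 ± 0.09 (adjusted p = 0.0667). Gsk3b, a kinase of the Wnt and insulin pathways, measured 0.45, 0.38, 0.28 and 0.50 in Bl6, 0.15, 0.14, 0.26 and 0.21 in CSS1 and -0.14, -0.03, 0.08 and -0.12 in CSS2. It was called both as 0.40 ± 0.04 above the pool in Bl6 (adjusted p = 0.00854) and as 0.33 lower in the substitution strains (SE 0.05, adjusted p = 0.00995, and 0.0586 without Bl6 mouse 2). Against the pool, the substitution strains were at 0.07, so this shared fall lay on the side of the Bl6 mice. Olfr180, Olfr173 and Pom121l2 were 0.40, 0.40 and 0.39 above the pool in Bl6 (adjusted p = 0.0245, 0.018 and 0.0226). Averaged over all probes of the gene, the value was 0.21 for Olfr180, 0.13 for Pom121l2 and 0.24 for Gsk3b, and none of these was called (adjusted p = 0.11, 0.133 and 0.199). Actb, Olfr173, Olfr180 and Pom121l2 lost their calls without any 1 of the 4 Bl6 mice, and Gsk3b without any 1 of mice 2, 5 and 11.

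The pool gave a second reference for the shared genes, in place of the mean of the 4 Bl6 mice. The mice in the pool are not given, so it may hold RNA of these 4. The fit also takes its spread and dye effect from all 12 arrays. Of the 173 shared rises, 171 were also called higher against the pool, where 6.35% of all genes were. Of the 69 shared falls, 58 were called lower, against 4.79%, and 1, Gm4750, was called higher, at 0.10 (adjusted p = 0.0361). The shared genes were chosen with the same 8 substitution strain mice, which by itself favours such calls, so these counts are a description and no separate support. The Bl6 mice themselves were called against the pool for none of the rises and for 7 of the falls, Ccdc85a, Gm4750, Gsk3b, Neto1, Plcxd3, Zfp738 and Zfp871. The share of a difference that lay on the Bl6 side of the pool had a median of 10.4% for the rises and 19.6% for the falls. It exceeded 50% in 4 rises, Sparc, Sox8, Cap2 and Cntfr, and in 13 falls, Gsk3b and Necab1 among them. Necab1, a calcium-binding protein of neurons, was 0.22 above the pool in Bl6 (adjusted p = 0.16) and 0.33 lower in the substitution strains than in Bl6 (SE 0.05, adjusted p = 0.0128, and 0.0685 without Bl6 mouse 2). For Opalin the Bl6 mean was 0.00 and for Cldn11 -0.04, so nearly all of their rise was also seen against the pool. In the myelin list, 13 of 14 genes were called higher against the pool, with a median of 0.66, while the Bl6 mice had a median of -0.02 and no call. Genes were chosen with the Bl6 mice, which favours those where the Bl6 mean lies opposite, as it did in 204 of the 242.

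**Figure D5:**
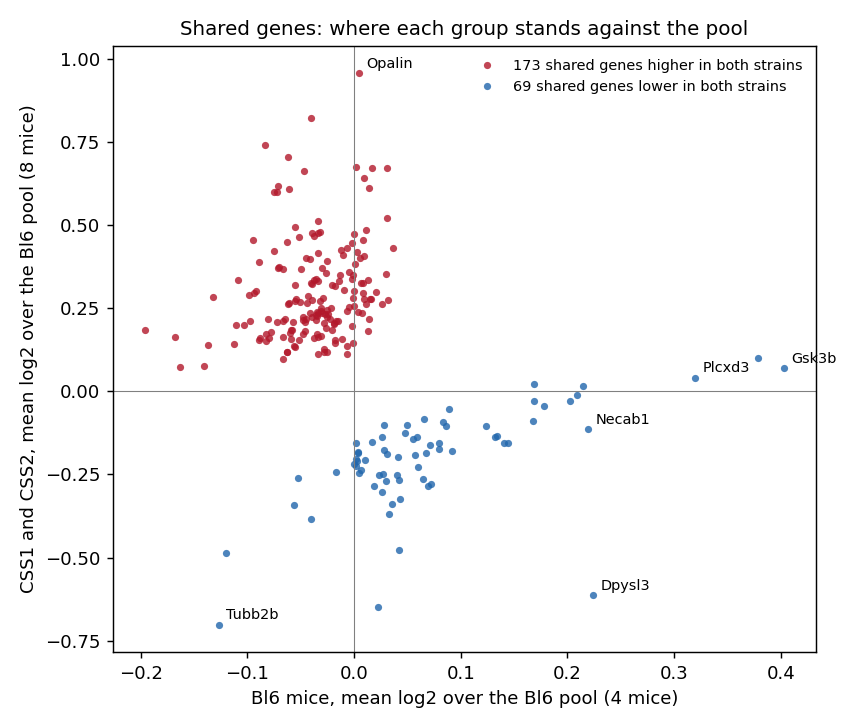
Mean log2 ratio over the Bl6 pool in the 4 Bl6 mice (horizontal axis) and in the 8 CSS1 and CSS2 mice (vertical axis) for the shared genes. The rises lie above 0 on the vertical axis and near 0 on the horizontal one, and Gsk3b stands out at 0.40 in Bl6 and 0.07 in the substitution strains.

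The precision behind these values rests on 12 arrays. On each array the median sample signal lay between 188 and 408 intensity units, and the median local background between 36 and 42. A probe counted as above background when its sample signal exceeded the 95th percentile of the control spots on that array. The share of such gene probes was 89.6% in CSS2 mouse 1 and up to 99.9% elsewhere. The median SD between mice of a group was 0.0672 on the log2 scale. Of the shared genes 241 of 242 were above background on all 12 arrays. Eif2s3y, a gene of the Y chromosome, ran from -0.31 to 0.25, with no mouse far from the rest, and the sex of the mice was not read from it. A further 44 of 6933 kept probes without a gene symbol were called, 25 higher and 19 lower, and are not named.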

How the data were processed

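RNA from 12 individual mice was hybridised with a Bl6 pool on dual-colour arrays, 1 per mouse, with the sample in Cy3 or Cy5 in equal numbers per strain, per the labels. The authors deposited the spot intensity of both channels as mean foreground and median background, per the file headers. They also deposited log2 ratios that served as an alternative. How these were normalized, the scanner and the build of the probes are not given in these sources.

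Here limma 3.58.1 (R 4.3.3) corrected the background by normexp with an offset of 50. Loess fitted on the gene probes of an array normalized the ratios, which were turned to sample over pool. Of 39429 gene probes, 39239 exceeded a mean log2 intensity of 6.23, the 95th percentile of 1580 control spots at background level. Of these, 6933 had no gene symbol in the platform annotation. The rest gave 21643 genes through the brightest probe, 21607 of them with a chromosome from the RefSeq GRCm38.p6 table, which served for names, chromosomes and promoters. One limma model held the 12 arrays, with terms for strain and for dye orientation, 8 residual and 3.21 prior degrees of freedom after eBayes. Benjamini-Hochberg adjustment ran over all kept probes. Intervals are 95% intervals of that fit.

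Genes were named by rule: the 12 largest shared rises and falls with a plain symbol, up to 4 called members of each list by size or up to 2 by p, the 5 largest Bl6 differences from the pool each way, and the 4 largest shared ones called against the pool. Other names were chosen after their values were seen and are marked so or given as counts' members. Members, lists and tests were chosen with earlier results of these data known. The alternatives were median centring, scale normalization between arrays, no background correction, the authors' values, no dye term, a block of consecutive mouse numbers, no filter on dim probes, the mean over a gene's probes, array weights, 1 group of 8, and each mouse left out.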

Additional observations from a re-analysis of the deposited data

Results flagged for a closer look

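Among 97 named genes, 291 groups of 4 mice were searched for a mouse whose gap to its nearest neighbour exceeded Dixon's 95% critical share of the group's range. Chance flags about 1 in 20 groups, and 11 stood out here. In CSS1 mouse 12, Ugt8a was at 0.365 against 0.687 to 0.746 in the other 3 mice, Ctss, a microglial protease, was at 0.244, and Vip was at 0.235. In CSS1 mouse 6, Necab1 was at -0.244, Olig1 at -0.0538 and Ptprz1, a receptor phosphatase of glia and their precursors that fell by 0.31 ± 0.05 (limma adjusted p = 0.019), at -0.413. In CSS2 mouse 7, Fam107a was at 0.179 against 0.5 to 0.525 in the other 3. In CSS2 mouse 1, Neto2, an auxiliary subunit of kainate receptors, was at -0.263. Like Ptprz1, Neto2 was among the named genes chosen after their values were seen. The remaining 3 were Npas2 at -0.119 in Bl6 mouse 11, Enpp6 at -0.179 in Bl6 mouse 2 and Rpl8, a ribosomal protein, at -0.0361 in CSS1 mouse 3.

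For 9 named genes CSS1 and CSS2 differed from each other in limma at an adjusted p under 0.05, given as CSS1 minus CSS2. Rgs5 differed by -1.05 and Npas2 by -0.85, both genes of chromosome 1, and Tshz2, a zinc finger factor on chromosome 2, by 0.37. Off these chromosomes Riox2 differed by 0.49, Tubb2b by -0.43, Nrep by -0.32, Ctss by 0.30, Olig1 by -0.26 and Ccna2 by -0.25.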

How the results depend on the processing

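Of 72 named results past the threshold, 31 stayed past it with every single mouse left out and 19 under all alternatives, and 0 reversed in any. Some of the 72 are for genes chosen after their values were seen. The genes called in both strains against Bl6 (377) became 130 when arrays were median-centred, 113 when dye was no term, 934 with array weights, 135 with the 8 arrays as 1 group, and 120 to 412 with a mouse left out (120 without Bl6 mouse 2, 183 without 5, 202 without 11, 240 without CSS1 mouse 3). With median centring 76.9% of called genes were higher, against 64.7%. The shared rises (173) became 73, 49 and 431 under the first 3 of these settings and 52 to 204 with a mouse left out. The shared falls (69) became 8, 15 and 192, and 15 to 83. The fit with 1 group gives no shared counts. Genes called in Bl6 against the pool (20) became 0 with median centring, 78 with scale normalization, 31 without background correction, 42 in the authors' values, 4 when dye was no term, 8 for probe means, 128 with array weights, 0 with 1 group (862 at an unadjusted p under 0.05), and 0 to 19 with a mouse left out. Genes called in both strains against the pool (2410) became 1173 with median centring, 1598 with scale normalization, 1117 without the dye term, and 1481 to 2437 with a mouse left out. The cause of these changes was not tested. No paired analysis was possible because the strains share no mouse numbers in the labels. A block of consecutive mouse numbers, which the labels do not give as a pairing, gave 412 called genes, 57.8% of them higher, and 260 shared genes. With 4 arrays per strain, differences near the spread between mice could not be resolved, and dim probes hold less signal over background.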
